A study of Mus musculus with 6 samples.

Results

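The Ly6 genes studied here were Ly6a, Ly6c1, Ly6c2, Ly6d, Ly6e and Ly6g, the rows of the deposited tables that carry these 6 symbols out of 16135 genes listed. They were read in 6 polyA RNA-seq libraries of common dendritic cell progenitors, which live in bone marrow and form dendritic cells. All cells came from wildtype C57BL/6 mice aged 6 to 8 weeks. Flow sorting divided the progenitors by the surface proteins CD115 and Ly6C into CD115+Ly6C+, CD115-Ly6C- and CD115+Ly6C- cells, with 2 libraries each. No treatment is named in the labels, and the groups differ only in the sorted subset. CD115, encoded by Csf1r, binds macrophage colony-stimulating factor. Ly6C is the product of Ly6c1 and Ly6c2, so the sort itself bears on the direction of these genes between CD115+Ly6C+ cells and either Ly6C- subset.

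Ly6 proteins are small, cysteine-rich proteins that sit on the outer face of the cell membrane through a glycosylphosphatidylinositol (GPI) anchor. Bone marrow cells are sorted by several of them: Ly6a is the stem cell antigen Sca-1, Ly6C marks monocytes and their precursors, Ly6g marks neutrophils, and Ly6d marks lymphoid progenitors that commit to the B cell lineage. Ly6e is expressed more widely, and in mice Ly6a, Ly6c1, Ly6c2 and Ly6e are known to respond to interferon.

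All 6 genes lie on chromosome 15. In RefSeq GRCm38.p6 coordinates they stand in the order Ly6d (74762056 to 74763567), Ly6e (74955025 to 74959904), Ly6a (74994877 to 74998031), Ly6c1 (75044018 to 75048920), Ly6c2 (75108161 to 75112066) and Ly6g (75155261 to 75159128). The stretch from the first to the last is 397073 bases long. Ly6e and Ly6g are on the plus strand and the other members on the minus strand. In the GENCODE transcripts, Ly6d has 3 exons and each of the others 4. The coding parts run from 384 bases in Ly6d to 411 bases in Ly6e.

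Ly6c1 and Ly6c2 are near copies, and the first 180 coding bases of each are shown because this likeness limits how far their values can be told apart. The bases in capitals are the 6 that differ. Both come from GENCODE transcripts of GRCm38 on the minus strand, chr15:75045013-75048830 for Ly6c1 and chr15:75108161-75111970 for Ly6c2, with introns removed.
Ly6c1: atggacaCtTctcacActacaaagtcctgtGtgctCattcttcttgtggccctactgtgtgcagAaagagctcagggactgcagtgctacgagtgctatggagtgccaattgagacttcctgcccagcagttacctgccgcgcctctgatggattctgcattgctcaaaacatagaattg
Ly6c2: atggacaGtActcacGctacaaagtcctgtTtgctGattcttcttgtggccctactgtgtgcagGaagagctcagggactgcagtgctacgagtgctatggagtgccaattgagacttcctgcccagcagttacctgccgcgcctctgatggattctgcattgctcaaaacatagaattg
Over the whole coding part, 387 of 396 aligned bases were identical (97.7%), with an identical run of 188 bases. Ly6a was 82.0% identical to Ly6c1 and Ly6g 79.8%. Ly6d and Ly6e were 50.9% and 49.9% identical to Ly6c1. Of the 795 windows of 50 bases in the Ly6c1 transcript, 252 (31.7%) were also found in Ly6c2, and 40 (5.0%) in Ly6a. None of the windows of Ly6d or Ly6e occurred in another member or in Ly6i, a neighbouring Ly6 gene. A read that lies wholly in a shared window cannot be placed from its sequence alone.

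RSEM, which estimates how many reads belong to each gene, split reads between Ly6c1 and Ly6c2 in the deposited values. The fractional parts of their expected counts were 0.99 and 0.01 in CD115-Ly6C- replicate 1, and 0.03 and 0.97 in replicate 2. They were 0.02 and 0.98 in CD115+Ly6C- replicate 1, and 0.08 and 0.92 in replicate 2. In these 4 libraries the 2 genes therefore sum to whole counts. In CD115+Ly6C+ replicate 1 the parts were 0.19 for Ly6c1, 0.31 for Ly6c2 and 0.5 for Ly6a, and in replicate 2 all 3 were whole. The level of Ly6c1 is uncertain for this reason, while the sum of the pair does not depend on the split between them.

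Totals of expected counts lay between 17961541 and 19450329 per library, with 13307 to 14127 genes with reads. The 5 genes listed as gate markers of these progenitors, Flt3, Kit, Csf1r, Il7r and Cd34, had reads in every library. Csf1r stood at 553 and 531 TMM-scaled CPM (counts scaled to library size and put on a common scale) in CD115+Ly6C+ cells, 213 and 259 in CD115-Ly6C- cells, and 414 and 513 in CD115+Ly6C- cells. It was lowest in the subset sorted as CD115-. Flt3, Kit, Il7r and Cd34 ran the other way, highest in CD115-Ly6C- cells and lowest in CD115+Ly6C+ cells. Il7r had 1.5 and 2.16 CPM in CD115+Ly6C+ cells, 79.9 and 69.6 in CD115-Ly6C- cells, and 14.4 and 13.4 in CD115+Ly6C- cells. One library stood apart from its pair: genes known from neutrophils summed to 944 CPM in CD115+Ly6C- replicate 2 and to 236 in replicate 1. For the members, results that involve this subset are given below with that library left out wherever this ended a call, turned a direction or moved a fold by more than 1.5 times. For gene lists, the counts of called genes were taken again without it, an alternative added after the data were seen. With it left out, the arm rests on 1 library, so a call may end for that reason, whatever the library held. All genes called then numbered 501 in CD115+Ly6C+ cells and 965 in CD115-Ly6C- cells, each against CD115+Ly6C- cells, beside 1164 and 1844 with all libraries.

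Of the 12127 genes that passed the filter on low counts, 6 were the Ly6 members. Ly6a, Ly6c1, Ly6c2, Ly6d and Ly6e reached the CPM asked for, 0.529, in both libraries of every subset. Ly6g reached it only in CD115+Ly6C+ cells, so it entered the test through the subset where it was high. FPKM, reads scaled by gene length and library size, is used below for levels, since only values per length compare genes with each other. Fold changes are log2 ratios of TMM-scaled counts, and a gene was called when its edgeR adjusted p lay under 0.05.

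**Figure D1:**
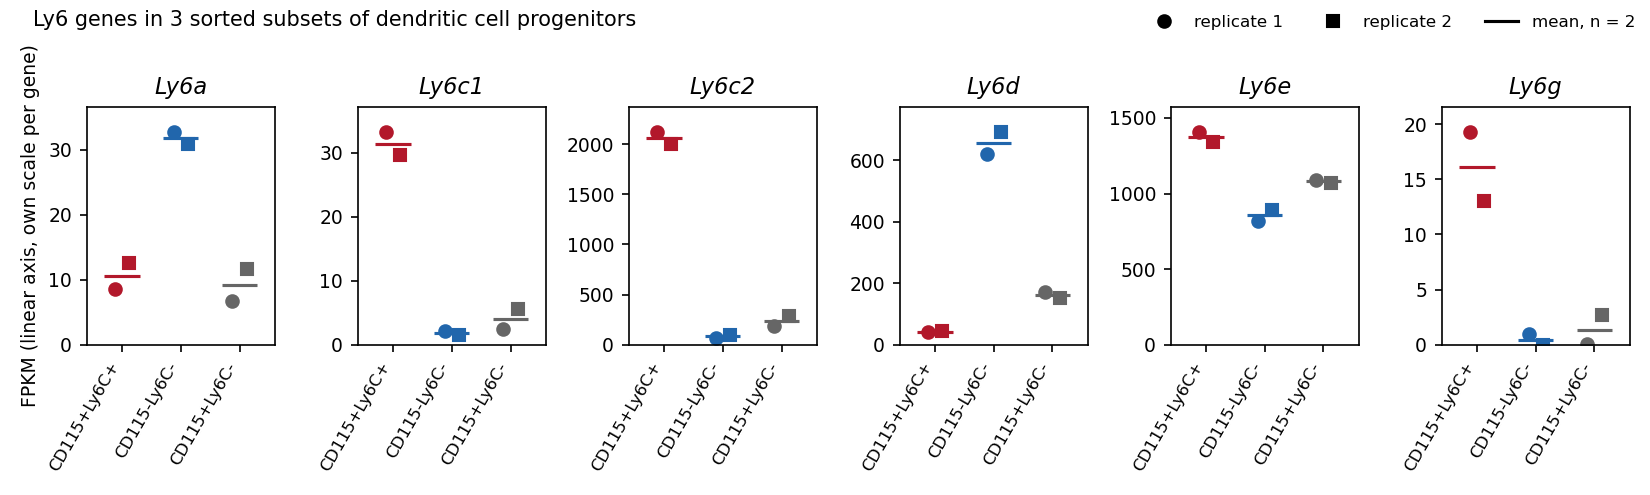
FPKM of each Ly6 gene (linear axes, 1 scale per gene) in the 3 sorted subsets, with 1 point per library and a line at the mean of 2. Ly6c1, Ly6c2 and Ly6g were highest in CD115+Ly6C+ cells, Ly6a and Ly6d in CD115-Ly6C- cells, and Ly6e was at 821 FPKM or more in every library.

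Ly6c2, source of most Ly6C transcripts counted here, had 2117 and 2005 FPKM in CD115+Ly6C+ cells, 70.4 and 101 in CD115-Ly6C- cells, and 185 and 289 in CD115+Ly6C- cells. These rest on 25811 and 23389 expected counts in CD115+Ly6C+ cells, 831 and 1242 in CD115-Ly6C- cells, and 2303 and 3549 in CD115+Ly6C- cells. No library of a subset overlapped with one of another, and both CD115+Ly6C+ libraries stood far above the rest. Against CD115+Ly6C- cells, Ly6c2 was higher in CD115+Ly6C+ cells by a log2 fold change of 3.20 (SE 0.24, edgeR adjusted p = 0.000468). That difference follows the gate on Ly6C. CD115-Ly6C- cells and CD115+Ly6C- cells were both gated as Ly6C-, and between them Ly6c2 was lower in CD115-Ly6C- cells (log2 fold change -1.58, SE 0.23, edgeR adjusted p = 0.00391). Fewer cells with a transcript and less of it per cell cannot be told apart in bulk libraries.

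Ly6c1 encodes the other form of Ly6C. It had 33.2 and 29.6 FPKM in CD115+Ly6C+ cells, 2.17 and 1.51 in CD115-Ly6C- cells, and 2.51 and 5.57 in CD115+Ly6C- cells. The expected counts were 407 and 359 in CD115+Ly6C+ cells, 26.99 and 18.03 in CD115-Ly6C- cells, and 32.0 and 70.1 in CD115+Ly6C- cells. The order was that of Ly6c2 at a far lower level, and the subsets did not overlap. In CD115+Ly6C+ cells it was higher than in CD115+Ly6C- cells (log2 fold change 3.03, SE 0.37, edgeR adjusted p = 0.00274), and without CD115+Ly6C- replicate 2 the value was 3.71 (0.00636). The difference between CD115-Ly6C- cells and CD115+Ly6C- cells was a log2 fold change of -1.25 (SE 0.42) and did not pass (edgeR adjusted p = 0.0764). Without CD115+Ly6C- replicate 2 it was -0.58 (0.347), and without replicate 1 it was -1.72 (0.0395).

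Ly6c1 gave a small share of the pair. Of the summed FPKM of Ly6c1 and Ly6c2, it made up 1.55% and 1.46% in CD115+Ly6C+ cells, 2.99% and 1.47% in CD115-Ly6C- cells, and 1.34% and 1.89% in CD115+Ly6C- cells. The ranges of the subsets overlap, and the share was not tested. With the counts of both genes summed, Ly6C transcripts numbered 26219 and 23748 in CD115+Ly6C+ cells, 858 and 1260 in CD115-Ly6C- cells, and 2335 and 3619 in CD115+Ly6C- cells. The sum was lower in CD115-Ly6C- cells than in CD115+Ly6C- cells by a log2 fold change of -1.57 (edgeR adjusted p = 0.00384). As nearly all of the sum is Ly6c2, this repeats the Ly6c2 result and is not separate support for it.

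Ly6d, a mark of B lineage commitment among lymphoid progenitors, had 41.7 and 44.1 FPKM in CD115+Ly6C+ cells, 618 and 690.0 in CD115-Ly6C- cells, and 170.2 and 151 in CD115+Ly6C- cells. The expected counts were 408 and 413 in CD115+Ly6C+ cells, 5854 and 6791 in CD115-Ly6C- cells, and 1694 and 1484 in CD115+Ly6C- cells. The 3 subsets were well separated, in the reverse order of Ly6c2. Against CD115+Ly6C- cells, Ly6d was lower in CD115+Ly6C+ cells (log2 fold change -1.82, SE 0.13, edgeR adjusted p = 0.000358) and higher in CD115-Ly6C- cells (1.92, SE 0.12, 0.000173). Between CD115+Ly6C+ cells and CD115-Ly6C- cells the difference was 13.3-fold (log2 fold change -3.74, SE 0.13, edgeR adjusted p = 2.12e-06). It had the 5th smallest p of all genes tested there, and the 7th smallest in each of the others.

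Genes known from B cell progenitors were called in part. Of 12 tested, 3 were lower and 0 higher in CD115+Ly6C+ cells against CD115+Ly6C- cells, 7 were higher and 0 lower in CD115-Ly6C- cells against CD115+Ly6C- cells, and 7 were lower and 0 higher in CD115+Ly6C+ cells against CD115-Ly6C- cells. Of all genes tested, 9.6%, 15.2% and 39.3% were called in these comparisons. The 13 on the list summed to 137 and 163 CPM in CD115+Ly6C+ cells, 3216 and 2808 in CD115-Ly6C- cells, and 425 and 518 in CD115+Ly6C- cells. Most of the sum in CD115-Ly6C- cells was 1 gene, Dntt, the terminal transferase that adds bases at antigen receptor joins, with 2936 and 2540 CPM there. Without it, the other 12 summed to 103.0 and 118 CPM in CD115+Ly6C+ cells, 280 and 268 in CD115-Ly6C- cells, and 143 and 133 in CD115+Ly6C- cells. Of these, Cd79b alone had 90.4 and 102 CPM in CD115+Ly6C+ cells, 76.6 and 82 in CD115-Ly6C- cells, and 90.1 and 84.6 in CD115+Ly6C- cells. It was called in no comparison. Of the 7 called in each comparison with CD115-Ly6C- cells, Dntt, Blnk, Rag1 and Rag2 had the smallest adjusted p. Rag1 had 0.17 and 0 CPM in CD115+Ly6C+ cells, 13.2 and 10.4 in CD115-Ly6C- cells, and 0.58 and 0.21 in CD115+Ly6C- cells. Rag2 had 0.95 and 1.68, 87.4 and 64.1, and 22.4 and 14.2 CPM in the same order. The other 5 tested were not called in either of these comparisons. T and NK cell genes ran in the same order as the B cell progenitor sum: they summed to 10.7 and 7.42 CPM in CD115+Ly6C+ cells, 163 and 165 in CD115-Ly6C- cells, and 35.6 and 37.7 in CD115+Ly6C- cells. Lck, a kinase of T cell receptor signalling, gave 142 and 143 CPM of this in CD115-Ly6C- cells, while Cd3e and Cd3g, parts of that receptor, were at 0 in 5 of 6 libraries. Pax5, a transcription factor that defines committed B cells, had 2 counts in CD115-Ly6C- replicate 1 and 0 in the other 5 libraries. Of 6 T and NK cell genes tested, 3 were lower in CD115+Ly6C+ cells and 3 higher in CD115-Ly6C- cells, each against CD115+Ly6C- cells, and 4 were lower in CD115+Ly6C+ cells against CD115-Ly6C- cells, beside the same 9.6%, 15.2% and 39.3% of all genes. The part of such cells in the Ly6d level was not tested.

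Ly6a (Sca-1) had 8.64 and 12.7 FPKM in CD115+Ly6C+ cells, 32.7 and 31.0 in CD115-Ly6C- cells, and 6.70 and 11.7 in CD115+Ly6C- cells. These were 131 and 182 expected counts in CD115+Ly6C+ cells, 469 and 460.0 in CD115-Ly6C- cells, and 102 and 176 in CD115+Ly6C- cells. The CD115-Ly6C- libraries stood above the other 4, which overlapped between their subsets. Against CD115+Ly6C- cells, Ly6a was higher in CD115-Ly6C- cells by a log2 fold change of 1.66 (SE 0.30, edgeR adjusted p = 0.0096), though the call ended without CD115+Ly6C- replicate 1 (1.31, 0.0635). It was lower in CD115+Ly6C+ cells than in CD115-Ly6C- cells (-1.36, SE 0.29, 0.00731). Between CD115+Ly6C+ cells and CD115+Ly6C- cells the log2 fold change of 0.30 was as large as its SE of 0.30 (edgeR adjusted p = 0.55), and its sign turned when CD115+Ly6C+ replicate 2 (-0.02) or CD115+Ly6C- replicate 1 (-0.045) was left out. The 10 genes listed for stem cells, which share Sca-1 as a surface mark, summed to 642 and 594 CPM in CD115+Ly6C+ cells, 1586 and 1530 in CD115-Ly6C- cells, and 1188 and 1043 in CD115+Ly6C- cells. Most of this was Cd34, which is also on the list of gate markers, and the other 9 summed to 37.9 and 39.6 CPM in CD115+Ly6C+ cells, 151 and 157 in CD115-Ly6C- cells, and 75.4 and 76.3 in CD115+Ly6C- cells. Of 7 stem cell genes tested, 4 were lower in CD115+Ly6C+ cells and 6 higher in CD115-Ly6C- cells, each against CD115+Ly6C- cells (3 and 1 without CD115+Ly6C- replicate 2), and 6 were lower in CD115+Ly6C+ cells against CD115-Ly6C- cells. The calls over all genes, with all libraries, were 9.6%, 15.2% and 39.3% in these comparisons. Fgd5, known from the stem cells themselves, was at 0 in 5 of 6 libraries. The part of such cells in the Ly6a level was not tested.

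Ly6e, a broadly expressed member, had 1405 and 1342 FPKM in CD115+Ly6C+ cells, 821 and 893 in CD115-Ly6C- cells, and 1090.0 and 1073 in CD115+Ly6C- cells. It was counted 27741 to 48759 times per library. The subsets did not overlap, and the widest fold between them, 1.82, was the smallest among the members. Ly6e was higher in CD115+Ly6C+ cells than in CD115-Ly6C- cells (log2 fold change 0.86, SE 0.10, edgeR adjusted p = 0.000431). Against CD115+Ly6C- cells it was higher in CD115+Ly6C+ cells (0.42, SE 0.10, 0.0405) and lower in CD115-Ly6C- cells (-0.45, SE 0.10, 0.0246). Both of these calls lay close to the threshold: of 16 alternative settings, 5 kept the first and 10 the second. Scaling by library totals, for instance, gave 0.35 (0.0523) and -0.32 (0.0529), a block on the replicate number gave 0.42 (0.0602) and -0.45 (0.0398), and leaving out CD115+Ly6C- replicate 2 gave 0.39 (0.139) and -0.47 (0.0768). Leaving out CD115+Ly6C- replicate 1 gave 0.43 (0.16) and -0.43 (0.117).

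Ly6g, the antigen by which neutrophils are told from monocytes, had the fewest counts of the members in both Ly6C- subsets. Its levels were 19.3 and 13.04 FPKM in CD115+Ly6C+ cells, 0.95 and 0 in CD115-Ly6C- cells, and 0.07 and 2.68 in CD115+Ly6C- cells. These rest on 273 and 176 counts in CD115+Ly6C+ cells, 13 and 0 in CD115-Ly6C- cells, and 1 and 38 in CD115+Ly6C- cells. A count of 0 in CD115-Ly6C- replicate 2 allows up to 0.158 CPM of unscaled counts. Both CD115+Ly6C+ libraries lay above the other 4, while the other subsets overlapped. Ly6g was higher in CD115+Ly6C+ cells than in CD115-Ly6C- cells by a log2 fold change of 5.28 (SE 1.16, edgeR adjusted p = 0.00782), a call that DESeq2 did not give (0.0621). Without CD115-Ly6C- replicate 2 the value was 4.29, and without replicate 1 that subset is left at a count of 0 and the fold has no fixed size. The difference from CD115+Ly6C- cells was 3.63 (SE 1.01) and did not pass (edgeR adjusted p = 0.0576). Under 6 of 16 alternative settings it did pass. Without a filter on low counts the adjusted p was 0.000317, with only the compared libraries 0.0164, without CD115-Ly6C- replicate 1 or 2 0.0208 and 0.0263, and with limma on log2(FPKM + 1) 0.0101. Without CD115+Ly6C- replicate 2, which leaves a single count in that subset, the value was 7.76 (0.0392). Between CD115-Ly6C- cells and CD115+Ly6C- cells the value of -1.64 did not pass (0.415) and turned to 2.49 (0.45) without that library.

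The library of CD115+Ly6C- cells with 38 Ly6g counts was also the one with more of the other neutrophil genes. Leaving out Ly6g, the 14 genes on the list summed to 4304 and 4034 CPM in CD115+Ly6C+ cells, 320.4 and 154 in CD115-Ly6C- cells, and 236 and 944 in CD115+Ly6C- cells. Of the 14 tested, Ly6g included, 12 were higher in CD115+Ly6C+ cells than in CD115+Ly6C- cells and 14 higher than in CD115-Ly6C- cells, beside 5.26% and 19.2% of all genes. Ly6g is among those counted although it passed the filter only through CD115+Ly6C+ cells. With CD115+Ly6C- replicate 2 left out, all 14 had larger log2 fold changes in CD115+Ly6C+ cells against CD115+Ly6C- cells. For S100a8, which led the sum, the value was 4.41 in place of 3.10. All 14 without Ly6g had reads in every library except Stfa2l1, which was at 0 in 3. Cxcr2, a chemokine receptor of mature neutrophils, had 12.2 and 10.4 CPM in CD115+Ly6C+ cells, 1.74 and 1.08 in CD115-Ly6C- cells, and 0.69 and 1.54 in CD115+Ly6C- cells. The part of neutrophil-lineage RNA in the Ly6g and Ly6c1 values was not tested.

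Monocyte genes were called in the same direction as Ly6c2. Ly6c2 is on that list itself, and its own calls within the counts below are no separate result. The 13 listed besides Ly6c2 summed to 6049 and 6885 CPM in CD115+Ly6C+ cells, 1036 and 1326 in CD115-Ly6C- cells, and 2938 and 2993 in CD115+Ly6C- cells. Of the 11 tested, Ly6c2 included, 8 were higher in CD115+Ly6C+ cells than in CD115+Ly6C- cells, and 6 were lower in CD115-Ly6C- cells than in CD115+Ly6C- cells. These were 5 and 5 of 12 tested without CD115+Ly6C- replicate 2. With all libraries, 5.26% of all genes were higher in the first of these comparisons and 6.78% lower in the second. Besides Ly6c2, those with the smallest adjusted p in the first comparison were S100a4, Lyz2, Ms4a4c and Ccr2, and 3 of the 11 were not called there. Ccr2 had 567 and 671 CPM in CD115+Ly6C+ cells, 49.1 and 77.8 in CD115-Ly6C- cells, and 230.5 and 248 in CD115+Ly6C- cells. Ace and Treml4, known from mature monocytes, were at 0 in 5 and 3 of the 6 libraries. Treml4 had 13 and 3 counts in CD115+Ly6C+ cells and 0 and 3 in CD115-Ly6C- cells. The part of such cells in the Ly6c2 level was not tested. Genes of plasmacytoid dendritic cells summed to 3093 and 2842 CPM in CD115+Ly6C+ cells, 2664 and 2899 in CD115-Ly6C- cells, and 2795 and 3195 in CD115+Ly6C- cells. Irf8, a transcription factor that these progenitors also express, gave most of it, and the other 9 summed to 419.8 and 363 CPM in CD115+Ly6C+ cells, 648 and 690 in CD115-Ly6C- cells, and 477 and 480.1 in CD115+Ly6C- cells. Of 9 tested, 1 was higher and 4 lower in CD115+Ly6C+ cells against CD115+Ly6C- cells (0 and 2 without CD115+Ly6C- replicate 2), 5 were higher in CD115-Ly6C- cells against CD115+Ly6C- cells, and 2 were higher and 6 lower in CD115+Ly6C+ cells against CD115-Ly6C- cells. Beside these stood calls in 9.6%, 15.2% and 39.3% of all genes, with all libraries. Genes of basophils and mast cells summed to 24.7 to 103 CPM and those of erythroid cells to 5.94 to 19.4 CPM.

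**Figure D2:**
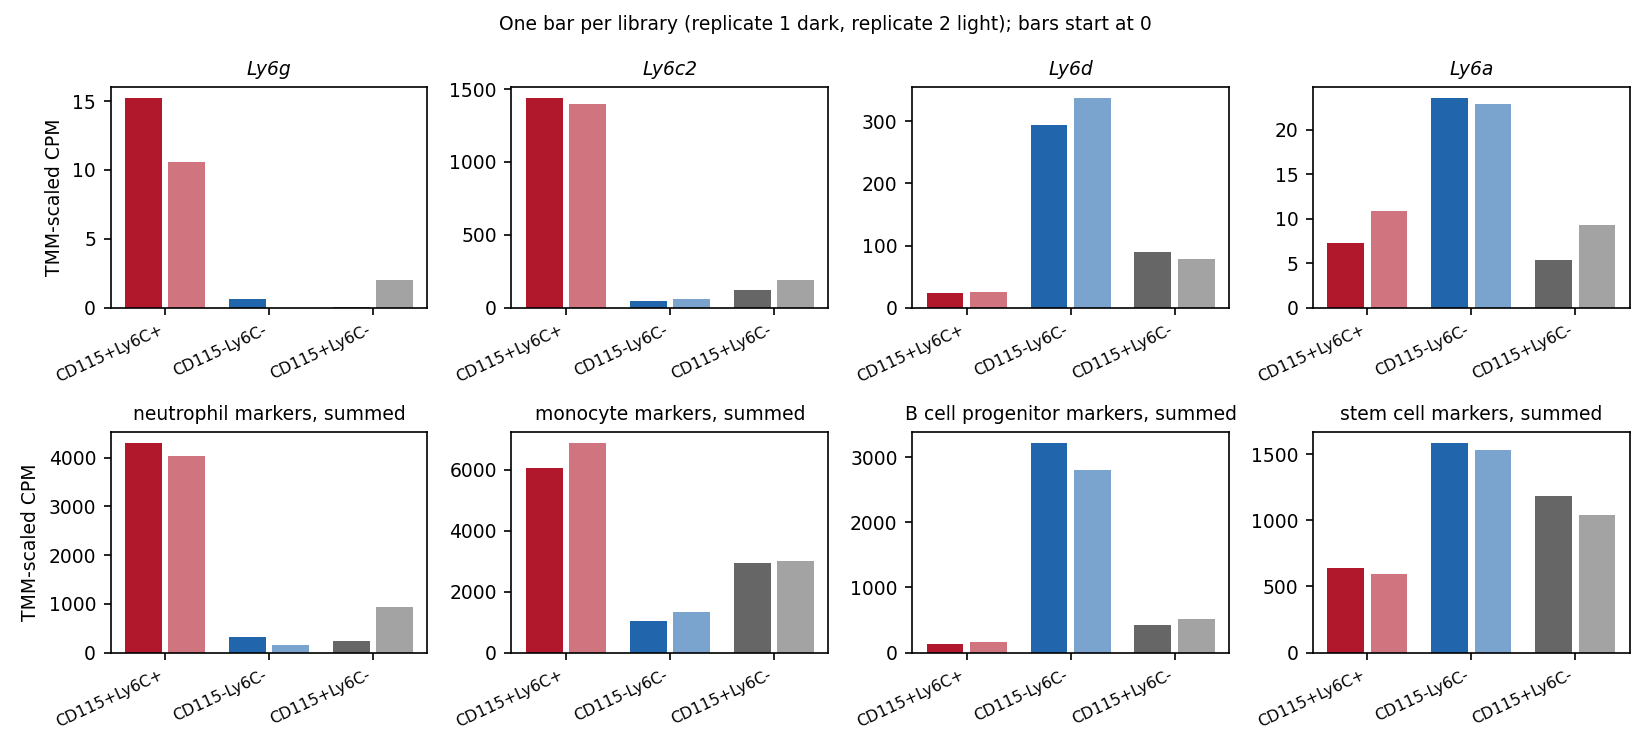
TMM-scaled CPM (linear axes from 0, 1 scale per panel) of 4 Ly6 genes in the upper row and of summed marker lists in the lower row, 1 bar per library, with Ly6g and Ly6c2 left out of the sums they belong to. In CD115+Ly6C- replicate 2, Ly6g had 2.02 CPM against 0.05 in replicate 1, and the neutrophil sum 944 against 236.

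The make-up of Ly6 transcripts differed between the subsets. Summed over the 6 genes, FPKM came to 3624 and 3446 in CD115+Ly6C+ cells, 1545 and 1717 in CD115-Ly6C- cells, and 1454 and 1533 in CD115+Ly6C- cells. In CD115+Ly6C+ cells, Ly6c2 made up 58.4% and 58.2% of the sum and Ly6e 38.8% and 38.9%. In CD115-Ly6C- cells, Ly6e made up 53.1% and 52.0%, Ly6d 40.0% and 40.2%, and Ly6c2 4.55% and 5.89%. In CD115+Ly6C- cells, Ly6e made up 74.9% and 70.0%, Ly6c2 12.7% and 18.9%, and Ly6d 11.7% and 9.84%. Ly6a, Ly6c1 and Ly6g together never gave more than a few percent. The leading gene was thus Ly6c2 in CD115+Ly6C+ cells and Ly6e in the other subsets. No test was run on these shares.

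**Figure D3:**
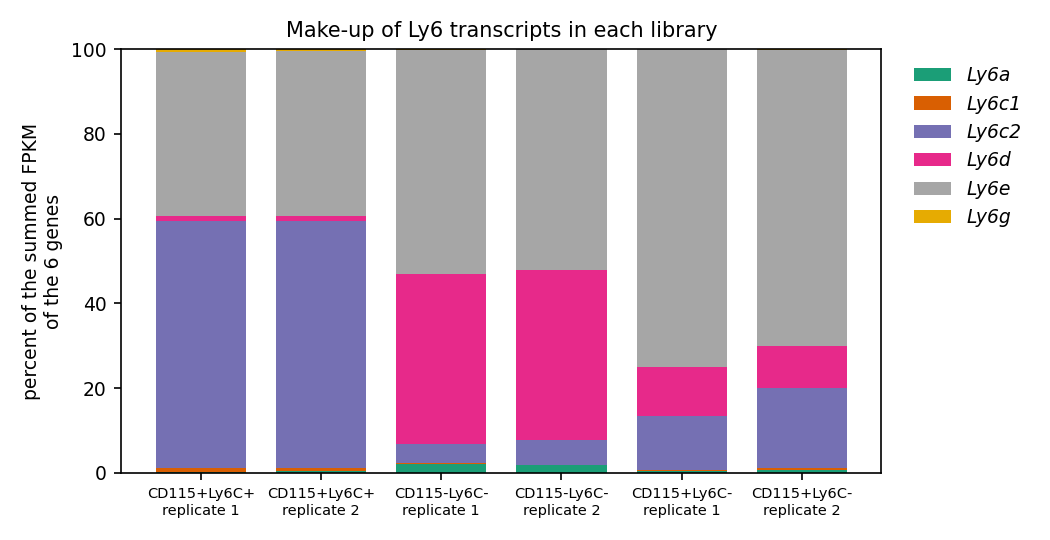
Share of each Ly6 gene in the summed FPKM of the 6 genes (percent, linear axis), 1 bar per library. Ly6c2 took 58.4% and 58.2% in CD115+Ly6C+ cells, Ly6d 40.0% and 40.2% in CD115-Ly6C- cells, and Ly6e 74.9% and 70.0% in CD115+Ly6C- cells.

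Set side by side, 4 of the 6 members were called in CD115+Ly6C+ cells against CD115+Ly6C- cells, with Ly6c1, Ly6c2 and Ly6e higher and Ly6d lower. The background in that comparison was 9.6% of all genes tested, 5.26% higher and 4.34% lower. In CD115-Ly6C- cells against CD115+Ly6C- cells, 4 were called, with Ly6a and Ly6d higher and Ly6c2 and Ly6e lower, beside 15.2% of all genes (8.43% higher, 6.78% lower). All 6 were called in CD115+Ly6C+ cells against CD115-Ly6C- cells, with Ly6c1, Ly6c2, Ly6e and Ly6g higher and Ly6a and Ly6d lower, beside 39.3% of all genes (19.2% higher, 20.1% lower). Scaling by library totals in place of TMM moved the median log2 fold change of all genes by -0.07, 0.12 and -0.19, and the calls over all genes were then 485 higher and 777 lower, 1383 and 479, and 1518 and 3504 in the same order. Ly6c1 and Ly6c2 are genes of the sorted antigen and Ly6g passed the filter only where it was high, so the counts lean on them. Leaving out either CD115+Ly6C- library ended both calls of Ly6e against that subset. Leaving out replicate 1 also ended the Ly6a call and added that of Ly6c1 between the Ly6C- subsets. Leaving out replicate 2 added Ly6g in CD115+Ly6C+ cells against CD115+Ly6C- cells. Calls over all genes in the comparisons with CD115+Ly6C- cells also fell with either library left out. The 3 comparisons share libraries, and the calls of one are not independent of those of another.

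In CD115+Ly6C+ cells against CD115-Ly6C- cells, which differ in both sorted proteins, the differences were the widest for every member except Ly6a, whose widest was between the Ly6C- subsets. Ly6c2 was higher by a log2 fold change of 4.78 (SE 0.26, edgeR adjusted p = 1.19e-05) and Ly6c1 by 4.29 (SE 0.40, 0.000133). Apart from Ly6a, members in CD115+Ly6C- cells lay between the other subsets in mean FPKM. Ly6a was lowest there, within the spread of CD115+Ly6C+ cells.

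**Figure D4:**
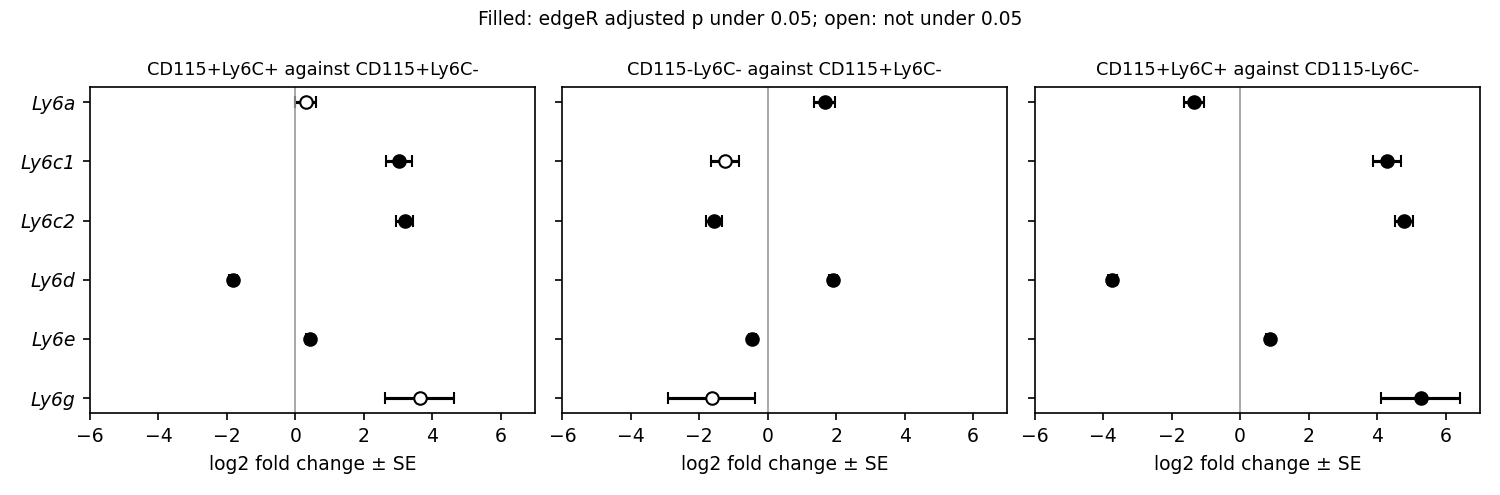
Log2 fold change (bars: SE) of the 6 Ly6 genes in the 3 comparisons, filled where the edgeR adjusted p lay under 0.05. Ly6d and Ly6a lay on the opposite side of 0 from Ly6c1, Ly6c2 and Ly6g in the 2 comparisons with CD115-Ly6C- cells.

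Along chromosome 15, the 3 members at the far end of the cluster, Ly6c1, Ly6c2 and Ly6g, had log2 fold changes of the same sign in each comparison, though that of Ly6g in CD115-Ly6C- cells against CD115+Ly6C- cells did not pass and turned without CD115+Ly6C- replicate 2. Ly6e, on the other side of Ly6a, had the same signs (0.42, -0.45 and 0.86), so they were not particular to that end. Of 29 coding neighbours that RefSeq places within 500000 bases of the cluster, 11 were listed and 8 tested. The only one called was Ly6i, a close relative between Ly6e and Ly6a. Ly6i had 34 and 22 counts in CD115+Ly6C+ cells, 5 and 2 in CD115-Ly6C- cells, and 0 in both CD115+Ly6C- libraries. It was higher in CD115+Ly6C+ cells than in CD115-Ly6C- cells (log2 fold change 3.15, SE 0.81, edgeR adjusted p = 0.0181) and at least 20.4-fold higher than in CD115+Ly6C- cells, taking 3 counts over both libraries as the floor (edgeR adjusted p = 0.0157, and 0.0644 without CD115+Ly6C- replicate 2). It reached 0.529 CPM only in CD115+Ly6C+ cells, so it too was tested only through the subset where it was high. Of its coding bases, 86.4% were identical to those of Ly6a, so reads may be shared. The other 7 tested neighbours were called in none of the comparisons by edgeR, and Lynx1, Ly6k and Them6 were among them. Lynx1, known as a modulator of nicotinic receptors, had the smallest unadjusted p of the 3 named, 0.0321 in CD115+Ly6C+ cells against CD115-Ly6C- cells (edgeR adjusted p = 0.0723).

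**Figure D5:**
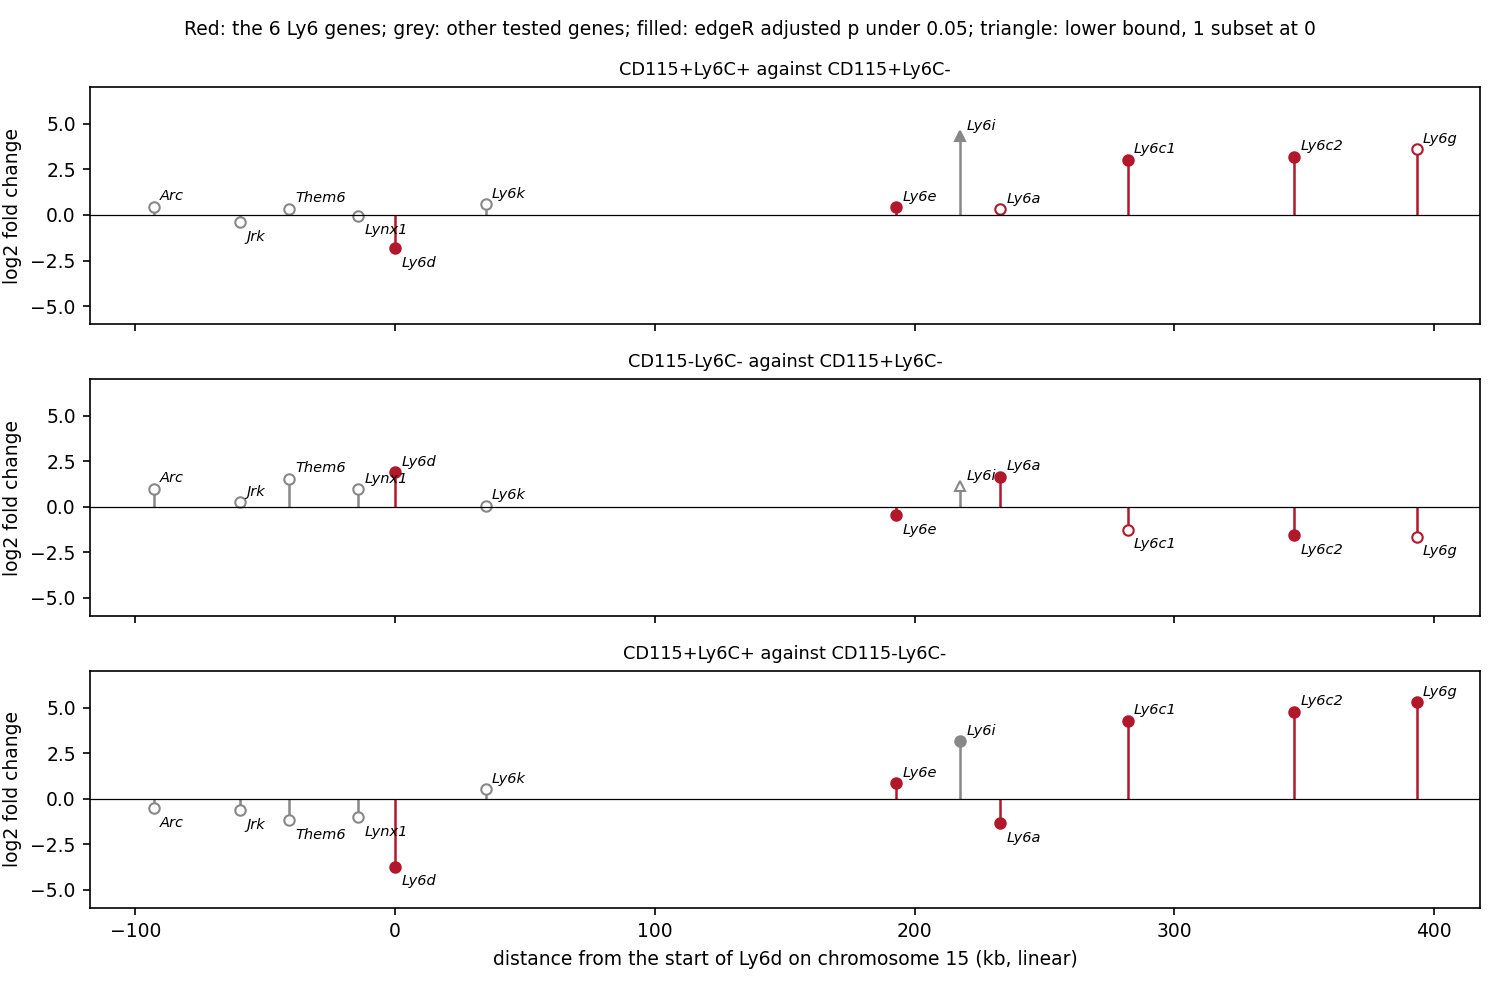
Log2 fold change of the Ly6 genes and their tested neighbours by distance from the start of Ly6d (kilobases, linear axis), 1 panel per comparison; a triangle marks a lower bound where 1 subset had 0 counts, and Zfp41 and Top1mt, not called, lie beyond the axis. Ly6c1, Ly6c2 and Ly6g point the same way in each panel (Ly6g in CD115-Ly6C- cells against CD115+Ly6C- cells not called, and turned without CD115+Ly6C- replicate 2), and Ly6d, at the other end, points the opposite way. Ly6e, on the other side of Ly6a, points the same way as Ly6c1 and Ly6c2.

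Promoter sequences from the RefSeq table of GRCm38.p6 were at hand for 3 members, Ly6c1, Ly6c2 and Ly6g. They are shown because these 3 lie side by side and had fold changes of the same sign, which Ly6e shared. Each comes from the 250 bases before the start that the table gives, written 5′ to 3′ on the strand of the gene, and capitals mark matches to TATAAA and to GAGGAAGT. The last 83 bases of that window for Ly6c1 and the last 95 for Ly6c2 lie inside the RefSeq span of the gene, and the last 21 for Ly6g in an annotated exon, so these are left off. What is shown of Ly6c1 lies at chr15:75048921-75049087 (minus strand), of Ly6c2 at chr15:75112067-75112221 (minus strand) and of Ly6g at chr15:75155011-75155239 (plus strand).
Ly6c1: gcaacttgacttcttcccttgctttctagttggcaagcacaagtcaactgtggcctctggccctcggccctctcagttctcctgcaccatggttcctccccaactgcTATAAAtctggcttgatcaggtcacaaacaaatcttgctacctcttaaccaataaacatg
Ly6c2: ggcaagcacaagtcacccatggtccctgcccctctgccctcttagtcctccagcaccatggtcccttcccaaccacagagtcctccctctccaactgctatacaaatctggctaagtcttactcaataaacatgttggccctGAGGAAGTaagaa
Ly6g: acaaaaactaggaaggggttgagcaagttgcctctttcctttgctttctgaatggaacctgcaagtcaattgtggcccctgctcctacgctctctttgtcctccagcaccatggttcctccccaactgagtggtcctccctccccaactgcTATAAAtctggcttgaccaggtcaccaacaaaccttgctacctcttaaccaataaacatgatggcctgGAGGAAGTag
Identity and motifs were taken over all 250 bases before the start in the table, the part within the gene span included. Ly6c1 and Ly6g were identical at 172 of 229 aligned positions (75.1%), Ly6c1 and Ly6c2 at 164 of 228 (71.9%), and Ly6c2 and Ly6g at 135 of 206 (65.5%). TATAAA was found 143 bases before the start of Ly6c1 and 99 before that of Ly6g. The same letters occur on either strand in 12.4% of 32851 promoters of this length. GAGGAAGT, letters bound by ETS family factors, was found 108 bases before the start of Ly6c2 and 31 before that of Ly6g, and in 2.4% of all promoters. CCAAT was found in Ly6c1 and Ly6g (33.8% of all promoters), TTNNGNAA, letters of C/EBP factors, in Ly6c2 and Ly6g (36.8%), and CANNTG, the E-box, in all 3 (66.2%). The matches did not overlap. The interferon-stimulated response element (3.0% of all promoters), TTCNNNGAA, letters bound by STAT factors (7.0%), and AGATAA, bound by GATA factors (3281 promoters), had no match in the 3 windows. A match describes the letters and is not a measured binding site.

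The wider Ly6 and uPAR family added few expressed genes. Of 15 other genes of the chromosome 15 cluster, 4 had reads and 3 were tested, and Ly6i was the only one called. Of 23 members elsewhere, 9 had reads and 3 were tested. Plaur, the receptor for urokinase, had 29.2 ± 3.72 CPM in CD115+Ly6C+ cells and 13.6 ± 5.06 in CD115-Ly6C- cells (SD, n = 2 each), and was higher by a log2 fold change of 1.10 (SE 0.27, edgeR adjusted p = 0.0129). Its mean was 16.6 CPM in CD115+Ly6C- cells, and neither other subset passed the threshold against it (edgeR adjusted p = 0.0907 and 0.511). Lypd6b had 12 and 21 counts in CD115-Ly6C- cells and 0 in the other 4 libraries. At 0.60 and 1.04 CPM there, it passed the filter only through that subset. It was at least 10.4-fold higher in CD115-Ly6C- cells than in CD115+Ly6C- cells (edgeR adjusted p = 0.0342, and 0.107 without CD115+Ly6C- replicate 2), and at least 9.53-fold lower in CD115+Ly6C+ cells than in CD115-Ly6C- cells (0.0162). Cd59a, an inhibitor of complement, was tested and not called in any comparison, with edgeR adjusted p of 0.547, 0.232 and 0.0502.

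Of genes that make and attach the GPI anchor, 1, 2 and 5 of 30 were called in the 3 comparisons, in the order used above, beside 9.6%, 15.2% and 39.3% of all genes. Of the 30 tested genes of this pathway, 0 were higher and 1 was lower in CD115+Ly6C+ cells against CD115+Ly6C- cells, with a median log2 fold change of 0.01 (all genes -0.009). The one was Pigg, an ethanolamine phosphate transferase, at 9.91 ± 0.46 CPM in CD115+Ly6C+ cells and 18.6 ± 1.75 in CD115+Ly6C- cells (SD, n = 2 each, log2 fold change -0.91, edgeR adjusted p = 0.0306, and 0.0723 without CD115+Ly6C- replicate 2). In CD115-Ly6C- cells against CD115+Ly6C- cells, 1 was higher and 1 lower (median -0.06, all genes 0.017). Pgap3, which remodels the lipid of the anchor, was higher at 11.2 ± 0.48 CPM in CD115-Ly6C- cells and 3.99 ± 1.26 in CD115+Ly6C- cells (1.49, 0.0259). Pign, another ethanolamine phosphate transferase, was lower at 33.8 ± 1.30 in CD115-Ly6C- cells and 48.1 ± 2.66 in CD115+Ly6C- cells (-0.51, 0.0341, and 0.117 without CD115+Ly6C- replicate 2). In CD115+Ly6C+ cells against CD115-Ly6C- cells, 4 were higher, Mppe1, Pigyl, Pigk and Pgap1, and 1 was lower, Pgap3 (-2.04, 0.00287), with a median of 0.02 (all genes -0.031).

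Other genes listed for GPI-anchored surface proteins were called in 5, 2 and 11 of 17 cases in the 3 comparisons, beside 9.6%, 15.2% and 39.3% of all genes. Of the 17 that were tested, 4 rose and 1 fell in CD115+Ly6C+ cells against CD115+Ly6C- cells (median 0.88), 2 were higher and 0 lower in CD115-Ly6C- cells against CD115+Ly6C- cells (median 0.07), and 8 were higher and 3 lower in CD115+Ly6C+ cells against CD115-Ly6C- cells (median 0.81). Cd48, a ligand of lymphocyte receptors, had 819 ± 52.5 CPM in CD115+Ly6C+ cells, 394 ± 0.98 in CD115-Ly6C- cells and 491 ± 24.4 in CD115+Ly6C- cells (SD, n = 2 each). It was higher in CD115+Ly6C+ cells than in CD115-Ly6C- cells (log2 fold change 1.06, edgeR adjusted p = 0.000168) and than in CD115+Ly6C- cells (0.74, 0.00525). Cd52, a short leukocyte glycoprotein, had 253 ± 8.05 CPM in CD115+Ly6C+ cells, 144 ± 8.09 in CD115-Ly6C- cells and 137 ± 9.71 in CD115+Ly6C- cells. Its log2 fold changes in the same comparisons were 0.81 (0.000662) and 0.88 (0.00274). Ceacam10, Fcgr4 and Cd177, known from granulocytes and other myeloid cells, were higher in CD115+Ly6C+ cells than in CD115-Ly6C- cells. Against CD115+Ly6C- cells their edgeR adjusted p was 0.0195, 0.0495 and 0.0545, and without CD115+Ly6C- replicate 2 it was 0.0816, 0.187 and 0.00518. In mice the product of Ceacam10 is secreted and that of Fcgr4 spans the membrane, so these are not GPI-anchored. Without both, 2 were higher and 1 lower of 15 in CD115+Ly6C+ cells against CD115+Ly6C- cells, and 6 higher and 3 lower in CD115+Ly6C+ cells against CD115-Ly6C- cells. Without CD115+Ly6C- replicate 2, the 17 had 3 higher and 0 lower in CD115+Ly6C+ cells against CD115+Ly6C- cells. Gfra1, a receptor for a glial growth factor, ran the other way with 0.09 ± 0.05 CPM in CD115+Ly6C+ cells, 21.0 ± 1.11 in CD115-Ly6C- cells and 0.69 ± 0.83 in CD115+Ly6C- cells. Its log2 fold change in CD115-Ly6C- cells against CD115+Ly6C- cells was 4.92 (edgeR adjusted p = 0.00267) and 7.55 (0.00437) without CD115+Ly6C- replicate 2. Art4, an ADP-ribosyltransferase homologue, had 0 counts in both CD115+Ly6C+ libraries and 95 and 81 in CD115-Ly6C- cells. Prnp, the prion protein gene, was lower in CD115+Ly6C+ cells than in CD115-Ly6C- cells (edgeR adjusted p = 0.0044) and than in CD115+Ly6C- cells (0.0211, and 0.0663 without CD115+Ly6C- replicate 2).

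Genes induced by interferon were called in both directions, in 5, 12 and 14 of 26 cases in the 3 comparisons, beside 9.6%, 15.2% and 39.3% of all genes. Of the 26 that were tested, 3 rose and 2 fell in CD115+Ly6C+ cells against CD115+Ly6C- cells (median log2 fold change 0.32), 11 were higher and 1 lower in CD115-Ly6C- cells against CD115+Ly6C- cells (median 0.72), and 4 were higher and 10 lower in CD115+Ly6C+ cells against CD115-Ly6C- cells (median -0.82). In CD115+Ly6C+ cells against CD115+Ly6C- cells, 1 was higher and 0 lower without CD115+Ly6C- replicate 2. Ly6a was higher in CD115-Ly6C- cells as most of the called genes were, while Ly6c2 and Ly6e were lower there. Rtp4, a chaperone of receptors, had 2.87 ± 0.59 CPM in CD115+Ly6C+ cells, 36.9 ± 1.37 in CD115-Ly6C- cells and 4.46 ± 0.52 in CD115+Ly6C- cells (SD, n = 2 each). Its log2 fold change was 3.05 in CD115-Ly6C- cells against CD115+Ly6C- cells (edgeR adjusted p = 0.000179). Ifi44, Oasl2 and Irf7, the last a transcription factor of the interferon response, were higher in the same comparison by 2.21, 2.43 and 1.96 (0.000179, 0.000338 and 0.00235). Ifitm2, which limits virus entry, had the same order of subset means as Ly6e, at 425 ± 28.9 CPM in CD115+Ly6C+ cells, 243 ± 7.81 in CD115-Ly6C- cells and 338 ± 31.1 in CD115+Ly6C- cells. Bst2, or tetherin, stands on the interferon, GPI-anchored and plasmacytoid lists and was higher in CD115+Ly6C+ cells than in CD115-Ly6C- cells (0.43, 0.0218).

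For each member, the genes most like it were taken as those with the smallest mean absolute difference of gene-centred log2 CPM over the 6 libraries, among 7896 genes. This is a description across libraries that share their subsets. Closest to Ly6c2 was Lgals3, a galectin of myeloid cells, at a mean difference of 0.169 log2 units, followed by the C-type lectins Cd209a (0.306) and Clec5a (0.336). Lgals3 had 176 and 199 CPM in CD115+Ly6C+ cells, 4.38 and 8.81 in CD115-Ly6C- cells, and 12.4 and 24.99 in CD115+Ly6C- cells. Ly6c1 was nearest to the neutrophil granule genes Camp (0.232), Mmp8 (0.273) and Ltf (0.288), all of which were higher in CD115+Ly6C- replicate 2 than in replicate 1. Ly6g was nearest to Retnlg (0.608), Mmp9 (0.643) and Lrg1 (0.66), at distances above those of the other members.

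Ly6d was nearest to Il1r1, an interleukin receptor (0.122), Mrgpre, an orphan receptor (0.147) and Mcoln2, a channel of endosomes and lysosomes (0.17). Il1r1 had 5.63 and 5.33 CPM in CD115+Ly6C+ cells, 82.6 and 75.8 in CD115-Ly6C- cells, and 24.97 and 19.1 in CD115+Ly6C- cells. Ly6a was nearest to Ddit4, an inhibitor of mTOR signalling (0.0944), Irf7 (0.137) and Cd84, a receptor of the SLAM family (0.151). Irf7 had 8.53 and 10.9 CPM in CD115+Ly6C+ cells, 33.1 and 27.0 in CD115-Ly6C- cells, and 6.29 and 9.18 in CD115+Ly6C- cells. Ly6e was nearest to Ndufa11, a subunit of respiratory complex I (0.0234), Nptn, an adhesion molecule (0.0305) and Ero1lb, an oxidase of the endoplasmic reticulum (0.0354). Ndufa11 had 123 and 125 CPM in CD115+Ly6C+ cells, 65.5 and 74.7 in CD115-Ly6C- cells, and 94.1 and 90.9 in CD115+Ly6C- cells. None of the 3 nearest genes of one member was among those of another. With so few taken from 7896 genes, this does not show that the patterns differ. Camp, Mmp8 and Ltf, nearest to Ly6c1, and Retnlg and Mmp9, nearest to Ly6g, are all on the neutrophil list.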

How the data were processed

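Common dendritic cell progenitors were measured by polyA RNA-seq. The submitters' processing notes name Bowtie2, RSEM and the mm10 build, without their settings. Versions, read length and strandedness: not given in the sources used here. Per the file headers, the authors deposited expected counts, which are estimated (12.6% of those above 0 were not whole at a tolerance of 1e-06), and FPKM, which the authors scaled by gene length and library. A gene without reads was absent from a table and taken as 0. No label mentions molecular identifiers, so a floor of 3 counts covers counting error only. Of 16135 genes, 15332 matched RefSeq by Entrez identifier.

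After rounding, expected counts entered edgeR's quasi-likelihood test (edgeR 4.0.16, R 4.3.3) after the filterByExpr filter (minimum count 10, minimum total 15) and TMM scaling, all 6 libraries in 1 fit with 1 coefficient per subset. Benjamini-Hochberg values over 12127 genes are written as edgeR adjusted p, with a threshold of 0.05. The biological coefficient of variation was 15.2%, with 3 residual degrees of freedom. The SE is the log2 fold change over the square root of F. The fit was tested on simulated counts. Totals of 17961541 to 19450329 counts per library set the precision. Whether the pair of libraries in each subset stems from different mice or different sorts is not in the labels, so p-values measure spread between libraries only, perhaps technical. Within each subset the 2 libraries differed beyond sampling noise (chi-square per degree of freedom 18.8 to 21.4).

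The 6 members and all gene lists were chosen with earlier results of these data known. Named genes were the members, up to 4 called genes per list, direction and comparison with the smallest adjusted p (fewer are described), the 3 genes most like each member with at least 5 FPKM in the highest subset, and called neighbours. Genes named for reaching 0, for leading a marker sum or as uncalled examples were chosen after their values were seen. Transcripts came from GENCODE M21 and promoters from RefSeq GRCm38.p6, aligned with Biopython 1.88 with free end gaps for promoters. Alternatives were DESeq2 1.42.0, other scalings, no filter, limma 3.58.1 on log2(FPKM + 1) and log2(FPKM + 0.1), the compared libraries alone, a replicate block, a length correction, Ly6c1 and Ly6c2 summed, and each library left out. Leaving CD115+Ly6C- replicate 2 out of the list counts, and 2 genes out of a list, were added after the data were seen.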

Additional observations from a re-analysis of the deposited data

How the results depend on the processing

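Ly6c2 and Ly6d were called in every comparison under all 16 alternatives, and Ly6c1 in both comparisons with CD115+Ly6C+ under the 15 that keep it apart from Ly6c2. The number of members called stayed between 3 and 5, 3 and 5, and 5 and 6 (out of 5 with Ly6c1 and Ly6c2 summed) in CD115+Ly6C+ against CD115+Ly6C-, CD115-Ly6C- against CD115+Ly6C-, and CD115+Ly6C+ against CD115-Ly6C-. Single genes turned sign 3 times, with no call on either side: Ly6a in CD115+Ly6C+ against CD115+Ly6C- was -0.045 without CD115+Ly6C- replicate 1 and -0.02 without CD115+Ly6C+ replicate 2 (range 0.75 to -0.045 over the libraries left out), and Ly6g in CD115-Ly6C- against CD115+Ly6C- was 2.49 without CD115+Ly6C- replicate 2 (range -7.27 to 2.49); the cause was not tested. Besides Ly6e, calls were lost for Ly6a in CD115-Ly6C- against CD115+Ly6C- without CD115+Ly6C- replicate 1 (0.0635) and for Ly6g in CD115+Ly6C+ against CD115-Ly6C- with DESeq2 (0.0621). Ly6g against CD115+Ly6C- was gained under 6 alternatives and Ly6c1 between the Ly6C- subsets under 3. Over all genes, 1164 were called in CD115+Ly6C+ against CD115+Ly6C-, 1810 without a filter on low counts and 711 with the length trend removed. With each library left out in turn, the counts were 220 to 1139 there, 485 to 1744 of 1844 in CD115-Ly6C- against CD115+Ly6C-, and 2983 to 4632 of 4768 in CD115+Ly6C+ against CD115-Ly6C-. An arm left with 1 library is assumed to vary like the others, with fewer samples behind each call. Scaling by library totals moved the split of higher and lower calls to 485 and 777 (638 and 526 with TMM), 1383 and 479 (1022 and 822), and 1518 and 3504 (2333 and 2435) in the same order of comparisons. Fold changes ran with gene length: the medians of the shortest and longest 25% of genes were 0.217 and -0.203, -0.125 and 0.128, and 0.341 and -0.311. With that trend removed Ly6e was 0.38 (0.076) in CD115+Ly6C+ against CD115+Ly6C-.

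Whether replicate numbers pair the samples is not in the labels. Deviations correlated at 0.152, -0.00399 and -0.0104 between subsets, which cannot decide this with 2 libraries per subset. A replicate block gave 965, 1503 and 4550 called genes and 3, 4 and 6 members in the order above, and Ly6e in CD115+Ly6C+ against CD115+Ly6C- then missed the threshold (0.0602). Depth limits Ly6g and Ly6c1, which rest on fewer than 100 counts in each library of the Ly6C- subsets.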

Other observations

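RSEM weights a gene's length by the transcripts it assigns reads to, so the deposited lengths reflect estimated isoform use. Ly6a had 977 and 974 nucleotides in CD115+Ly6C+ cells, 961 and 958 in CD115-Ly6C- cells, and 965 and 967 in CD115+Ly6C- cells. Ly6e had 2019 and 2017 in CD115+Ly6C+ cells, 2029 and 2029 in CD115-Ly6C- cells, and 2015 and 2021 in CD115+Ly6C- cells. The lengths of Ly6a and Ly6e differed by a few percent at most. Ly6c1 had 826 and 848 in CD115+Ly6C+ cells, 858 and 804 in CD115-Ly6C- cells, and 839 and 839 in CD115+Ly6C- cells. Its widest spread lay between the CD115-Ly6C- libraries, at 26.99 and 18.03 counts, so its length there is uncertain. No test was run on any of these lengths.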
